A study of Mus musculus with 4 samples.

Results

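The genes examined were 9 members of the Notch pathway: the receptors Notch1, Notch2, Notch3 and Notch4, the ligand Jag1, the DNA-binding effector Rbpj and its coactivator Maml1, the target Hes1 and the ubiquitin ligase Dtx1. They were taken by name from the 21883 protein-coding genes of the RefSeq annotation of GRCm38.p6 (mm10). Accessible sites (peaks) that touched a gene body or the 50 kb on either side were collected from 4 ATAC-seq libraries and joined where they shared at least 1 bp. This gave 127 of the 77914 regions of the genome, and no region belonged to more than 1 of the 9 genes. ATAC-seq maps open chromatin by the insertion of sequencing adapters by a transposase. The libraries came from MPP3 cells, a multipotent haematopoietic progenitor with a myeloid bias, sorted from the bone marrow of WT-iMOS mice aged 3 months. They formed a T1 group (genotype label WTiMOS_T1) and a T2 group (WTiMOS_T2) of 2 libraries each, and the labels do not say what iMOS, T1 and T2 stand for. The study asks how Bcl11a acts within MPP3 cells, and its design sets T1 against T2.

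Notch receptors are membrane proteins that are cut when a ligand such as Jag1 on a neighbouring cell binds them. The freed intracellular part enters the nucleus, joins Rbpj and a Mastermind-like protein such as Maml1 on DNA, and switches on targets of which Hes1, a basic helix-loop-helix repressor, is a standard example. In blood formation the pathway is best known for directing progenitors to the T cell fate through Notch1, and Notch2 is needed for marginal zone B cells.

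The 4 deposited lists held between 54045 and 66764 peaks on the assembled chromosomes and no read counts, so sequencing depth is unknown. Regions at the 9 genes numbered 96 and 83 in T1 replicates 1 and 2 and 108 and 106 in T2 replicates 1 and 2. Both T2 libraries exceeded both T1 libraries, as they did in list length. The means were 89.5 ± 9.19 in T1 and 107 ± 1.41 in T2 (SD, n = 2 per group), and the exact two-sided permutation test gave p = 0.333, the smallest that 2 against 2 libraries allow. Per 1000 peaks of the list there were 1.59 ± 0.0753 and 1.65 ± 0.0515 such regions (SD, n = 2 per group), and these groups overlapped. Nothing in the labels says that replicates came from separate animals, so their spread may be technical. Of 12 haematopoietic progenitor genes, 11 in each T1 library and 12 in each T2 library had a peak within 1 kb of a gene end, Mpo being the exception in T1. The same held for 3 or 4 of 6 T cell genes (no peak at Cd8a or Zap70 in any library), 4 or 5 of 6 endothelial genes (none at Cdh5) and 2 or 3 of 6 stromal genes (none at Lepr, Pdgfra or Col3a1). Whether chromatin of such cells contributed to the peaks below was not tested.

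The receptors differed in whether a peak was called at their start sites, and sequences just before such sites are given below. RefSeq gives a promoter sequence for 8 of the 9 genes, all but Hes1, on GRCm38.p6. A joined region with peaks of all 4 libraries overlapped the promoter window (250 bases before to 50 after the start site) of Notch1, Notch2, Jag1, Rbpj, Maml1 and Dtx1. Whether each library's own peak reached the window was not checked. The window of Notch3 had no peak in any library, and that of Notch4 had a peak in T2 replicate 2 only, with a −log10 q of 7.07. Among 17491 protein-coding genes with such an entry, 58.4% had such a joined region with peaks of all 4 libraries on a window and 37.6% had no region there. The 250 bases upstream of the start site are printed for Notch1, Notch2 and Rbpj, which had such a joined region. They are also printed for Notch3 and Notch4, which did not. Capitals mark the RBPJ core TGGGAA and the GC box GGGCGG, in either orientation.

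Notch1 (minus strand, chr2:26503823-26504072): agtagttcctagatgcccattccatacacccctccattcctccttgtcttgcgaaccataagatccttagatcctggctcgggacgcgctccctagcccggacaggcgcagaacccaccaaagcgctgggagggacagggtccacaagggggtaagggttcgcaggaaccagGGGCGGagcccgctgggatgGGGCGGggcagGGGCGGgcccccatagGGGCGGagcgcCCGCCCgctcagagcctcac
Notch2 (plus strand, chr3:98013288-98013537): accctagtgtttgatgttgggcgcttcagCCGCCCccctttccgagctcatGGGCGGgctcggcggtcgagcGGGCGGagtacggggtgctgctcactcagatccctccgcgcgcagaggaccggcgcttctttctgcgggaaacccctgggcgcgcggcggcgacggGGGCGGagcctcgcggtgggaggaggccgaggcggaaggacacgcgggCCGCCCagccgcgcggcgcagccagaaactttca
Rbpj (plus strand, chr5:53590096-53590345): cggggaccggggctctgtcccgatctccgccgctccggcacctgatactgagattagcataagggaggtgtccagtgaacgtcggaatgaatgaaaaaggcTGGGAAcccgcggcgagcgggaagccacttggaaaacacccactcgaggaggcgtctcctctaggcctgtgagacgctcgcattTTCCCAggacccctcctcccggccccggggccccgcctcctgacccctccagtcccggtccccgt
Notch3 (minus strand, chr17:32166891-32167140): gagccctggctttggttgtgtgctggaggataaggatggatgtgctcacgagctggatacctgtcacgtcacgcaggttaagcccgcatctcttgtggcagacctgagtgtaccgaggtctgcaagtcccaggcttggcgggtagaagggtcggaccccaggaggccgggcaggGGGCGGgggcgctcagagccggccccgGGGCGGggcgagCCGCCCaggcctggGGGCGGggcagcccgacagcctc
Notch4 (plus strand, chr17:34564045-34564294): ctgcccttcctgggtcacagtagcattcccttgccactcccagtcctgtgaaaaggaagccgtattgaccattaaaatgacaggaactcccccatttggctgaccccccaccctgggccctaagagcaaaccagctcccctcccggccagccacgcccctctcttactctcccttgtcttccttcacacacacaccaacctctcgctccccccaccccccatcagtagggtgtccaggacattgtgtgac

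In base composition the Notch3 sequence resembled those of promoters at which peaks were called. It held 17 CpG and 4 GC boxes, against 16 CpG and 5 GC boxes at Notch1 and 34 and 5 at Notch2. Of 6687 promoters with at least 17 CpG, 91.5% had a peak of all 4 libraries and 5.14% had none, and Notch3 belonged to the latter. Notch4 had 4 CpG and no GC box. The RBPJ core occurred 2 times at Rbpj itself, starting at positions −149 and −65 relative to the start site, and in none of the other 7 upstream sequences. At least 1 copy was present in 20.9% of 21262 promoter entries and at least 2 copies in 2.71%, while the GC box was present in 42.6%. No RBPJ core overlapped a GC box, and the ETS core CCGGAA, found in 15% of entries, was in none of the 8. The Rbpj peak itself had its summit between positions −969 and −964 in the 4 libraries, outside the printed stretch. The Jag1 region lay wholly upstream of its start site, 0.218 kb from the gene body, with summits between positions −980 and −661.

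**Figure D1:**
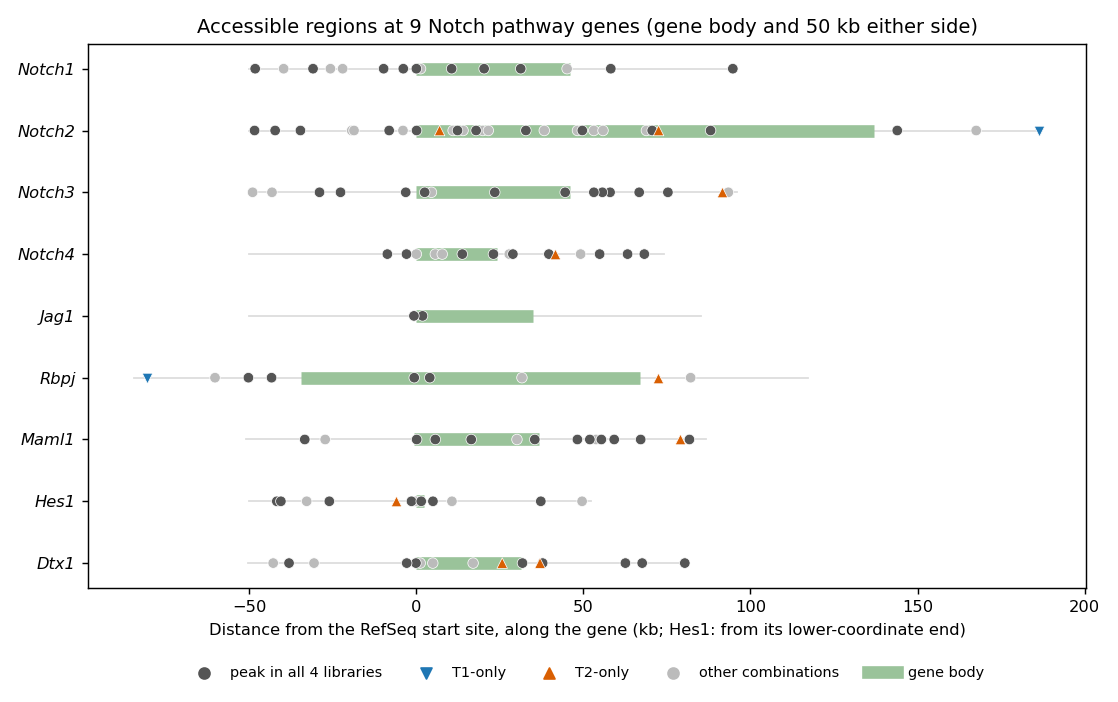
Positions of the 127 regions at the 9 genes, as distance in kb from the RefSeq start site along the direction of transcription (for Hes1, from the lower-coordinate gene end). Dark circles have a peak in all 4 libraries, blue and orange triangles are T1-only and T2-only, pale circles are other combinations and green bars are gene bodies. Jag1 has 2 regions, both next to its start site, and the 2 T1-only regions lie near the outer ends of the Notch2 and Rbpj windows.

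The 9 loci differed in how many regions they held. Jag1 had 2 regions in its window (1.48 per 100 kb) and Rbpj had 9 (4.46 per 100 kb), against a median of 5.52 per 100 kb over all protein-coding genes. The other 7 genes had between 10.3 and 12.1 per 100 kb, which placed each of them above the upper quartile of 9.21. Part of this density belonged to neighbours. Of the 127 regions, 44 lay in the body of the named gene, 7 on its promoter window, 9 on another gene's promoter window (Inpp5e, Sec16a, Ephx3, Pbx2, Agpat1, Ppt2, Sqstm1, Ltc4s and Canx), 30 in another gene's body and 37 between genes. The strongest region in the Notch4 window was in the bodies of Rnf5 and Agpat1, and the strongest in the Maml1 window was on the Canx promoter.

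Most of the accessibility at these genes was common to T1 and T2. A peak of all 4 libraries was present at 74 of the 127 regions (58.3%, 95% Wilson interval 49.6 to 66.5), against 56.8 percent of all regions. A region is called T2-only where both T2 libraries and neither T1 library had a peak, and T1-only in the opposite case. T2-only regions numbered 9 (7.09%, interval 3.77 to 12.9), against 6.88 percent of all regions. T1-only regions numbered 2 (1.57%, interval 0.433 to 5.56), against 2.33 percent of all regions. Each share was near that of the whole genome, and the intervals cover counting error only. The remaining 42 regions had mixed patterns: 14 were in 3 libraries, 5 in 1 library of each group and 23 in a single library. T1 replicate 2, the shortest list, was the missing library in 9 of the 14. With a library left out a single peak decides its group, and the T2-only count became 18 without T1 replicate 1, 16 without T2 replicate 1 and 19 without T2 replicate 2. T1-only regions numbered 7 without T1 replicate 2 and 4 without T2 replicate 2. Over all regions the T2-only share was between 9.67 and 15.7 percent with a library left out, and the T1-only share was 6.14 percent without T1 replicate 2 and 3.44 percent without T2 replicate 2.

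**Figure D2:**
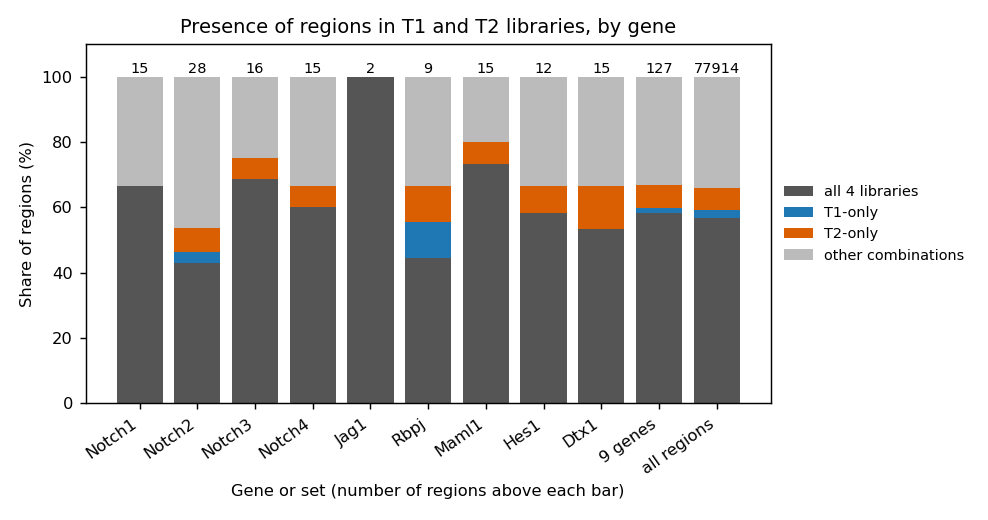
Share of regions (percent) with a peak in all 4 libraries, T1-only, T2-only or in other combinations, for each gene, for the 9 genes together and for all 77914 regions; the number of regions stands above each bar. The bar of the 9 genes is close to that of all regions, while single genes with few regions vary more.

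Both T1-only regions were strong for their class. The Rbpj window held a T1-only region between genes, at chr5:53509379-53509952, 45.8 kb from the gene body. Its −log10 q (the peak's significance over local background, from the authors' peak caller) was 36.0 and 55.0 in T1 replicates 1 and 2, which put it at percentiles 64.2 and 79.9 of those lists, where 100 is the strongest peak. The Notch2 window held the other, at chr3:98199711-98200123, 49.3 kb beyond the gene, with −log10 q of 24.7 and 25.7 and percentiles 52.4 and 57.7. Over all 1814 T1-only regions the median percentiles were 25.7 and 21.6 in the same libraries, so both regions stood above the usual strength of their class. Both remained T1-only in every setting of peaks or regions tried, while leaving a library out cannot change the class of a group-only region. Both lie near the window edge, and neither would be counted with 10 kb of flank.

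Among the 9 T2-only regions, 3 lay inside a named gene and 6 in the flanks. Notch2 held 2 of them. The nearer, at chr3:98020323-98020748, 7.0 kb after the start site, had −log10 q of 15.4 and 15.1 in T2 replicates 1 and 2 (percentiles 34.8 and 36.9). The farther, at chr3:98085886-98086234, had −log10 q of 24.4 and 9.70 (percentiles 50.6 and 21.8) and was no longer T2-only with peaks of at least 10. Dtx1, which can attach ubiquitin to Notch and is itself a Notch target in lymphocytes, held the third intragenic region at chr5:120685757-120686117, with −log10 q of 6.99 and 9.40. Another Dtx1 region at chr5:120674454-120674798, in the body of Rasal1, had 6.99 and 6.42. Both Dtx1 regions were weak, and neither was T2-only at equal list length or with −log10 q of at least 10.

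The strongest T2-only region was in the Maml1 window, at chr11:50213076-50213628, 42.0 kb from the gene and nearer to Sqstm1, which encodes an autophagy receptor. Its −log10 q was 30.3 and 44.7 (percentiles 57.9 and 72.9). In the Notch4 window a T2-only region overlapped the promoter window of Agpat1, a lipid synthesis enzyme, at chr17:34605717-34606077, with 20.8 and 15.1. Near Hes1, at chr16:30059329-30059581, 5.8 kb from the gene, a T2-only region had 12.5 and 7.58, and it was no longer T2-only with peaks below a −log10 q of 10 left out. The last pair, at Notch3 (chr17:32075239-32075602, 12.1 and 4.55) and Rbpj (chr5:53662515-53662896, 10.6 and 4.11), were near the lower limit of the lists in replicate 2. Neither was T2-only with peaks of at least 5 or at equal list length. No group-only region was found at Notch1 or Jag1.

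**Figure D3:**
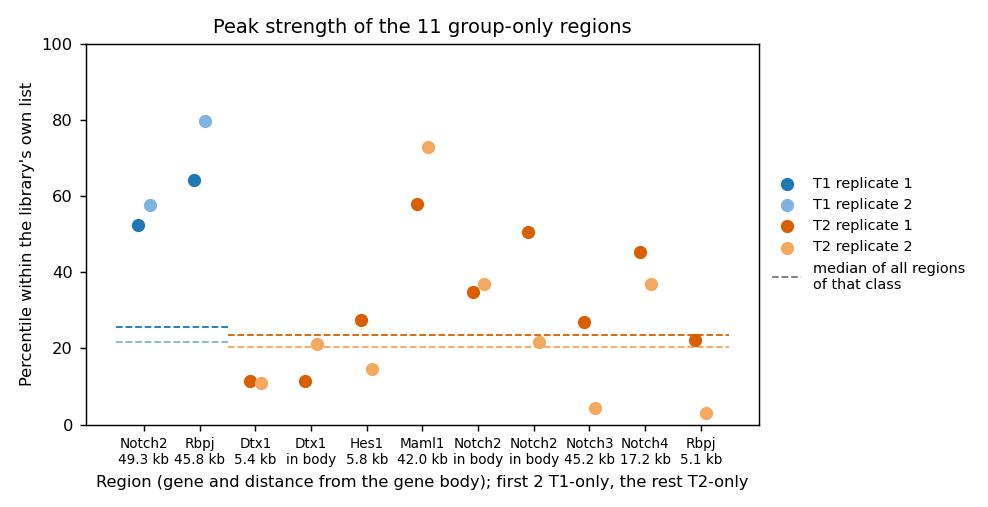
Strength of the 11 group-only regions, as percentile of the peak within its own library's list (100 is the strongest), for the 2 libraries that had it; dashed lines are the medians of all T1-only or T2-only regions in that library. The T1-only regions of Notch2 and Rbpj and the T2-only region of Maml1 lie well above those medians, and the 2 Dtx1 regions lie near or below them.

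The 74 regions present in every library were then compared by strength. All 44274 shared regions of the genome were ranked by −log10 q within each library, so that each ranking had the same length, and ranks are given as percentiles with 100 for the strongest. A region is said to rank higher in T1 where both T1 libraries lay above both T2 libraries, and the reverse for T2. Of the 74 regions, 16 ranked higher in T2 (21.6%, 95% Wilson interval 13.8 to 32.3), against 26.3 percent of all shared regions. Another 22 ranked higher in T1 (29.7%, interval 20.5 to 40.9), against 26.2 percent of all shared regions, and 36 overlapped. The T2 count was 25 when T1 replicate 1 was left out, 28 when T1 replicate 2 was, and 31 when T2 replicate 1 was, where 38.4, 38.0 and 38.5 percent of all shared regions ranked higher in T2. The median difference, T2 minus T1, was −0.13 percentile points over the 74 regions and 0.0215 over all shared regions. Group differences were of about the size of the replicate spread: their median size was 5.53 points, and the median gap between replicates was 4.23 points in T1 and 5.58 in T2. By role, 10 receptor regions ranked higher in T2 and 10 in T1 among 42. For Rbpj and Maml1 it was 2 and 5 among 15, for Hes1 1 and 3 among 7, for Dtx1 2 and 4 among 8 and for Jag1 1 and 0 among 2.

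Differences of at least 20 points, a size chosen after the values were seen, were found at 10 of the 74 regions. Of these 3 ranked higher in T2, against 3.97 percent of all shared regions, and 7 ranked higher in T1, against 4.35 percent. The T1 count corresponds to 9.46% (interval 4.66 to 18.3), with 1 or 2 regions per gene at Notch2, Notch3, Notch4, Rbpj and Dtx1.

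**Figure D4:**
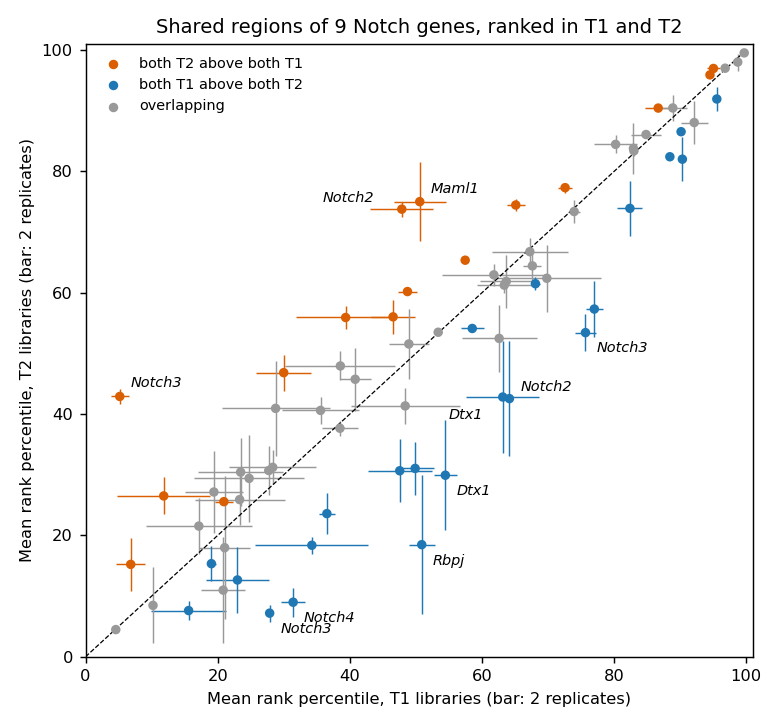
Mean rank percentile of each of the 74 shared regions in the T1 libraries (x axis) and the T2 libraries (y axis); bars span the 2 replicates and the dashed line marks equality. Orange and blue points are regions whose T2 or T1 libraries both rank above the other group, grey points overlap, and names mark the 10 regions with differences of at least 20 points, of which the Notch3 region at the left has the widest gap (37.7).

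The widest gap among the 74 was at Notch3, a receptor best known from vascular smooth muscle, and it favoured T2. The region at chr17:32108501-32109284 lies 11.5 kb past the 3′ end of the gene. Its rank percentiles were 6.56 and 3.81 in T1 replicates 1 and 2 and 44.1 and 41.7 in T2 replicates 1 and 2. It was thus among the weakest shared regions in both T1 libraries and near the middle of the range in both T2 libraries. The authors' fold over background was 4.24 and 3.83 in T1 and 7.0 and 6.68 in T2. Ranked by that fold instead, the gap narrowed to 15.9 points, and with peaks below a −log10 q of 10 left out the region became T2-only. It was not shared, and so had no rank comparison, where peaks had to cover 0.5 of the region.

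Of the 11 shared Notch3 regions, 3 ranked higher in T2, 2 ranked higher in T1 and 6 overlapped. Over all shared regions, 26.3 percent ranked higher in T2 and 26.2 percent in T1. The 2 Notch3 regions that ranked higher in T1 are given first. A region inside the gene, 2.5 kb after the start site (chr17:32163940-32164768), had rank percentiles of 77.3 and 74.1 in T1 and 50.4 and 56.4 in T2. A region on the promoter of the neighbour Ephx3, an epoxide hydrolase (chr17:32189034-32190038), had 27.9 and 27.8 in T1 and 8.58 and 5.81 in T2. The Ephx3 region was not shared with peaks of at least 10 or with the 0.5 cover rule. The strongest Notch3 region, in the gene body at chr17:32143080-32143690, had 82.7, 83.3, 84.3 and 82.5 across T1 replicates 1 and 2 and T2 replicates 1 and 2, with no separation of the groups. Another region ranking higher in T2, at the 3′ end of the gene (chr17:32121893-32122751), had 47.3 and 50.2 in T1 and 59.9 and 60.5 in T2. The remaining one, in the flank at chr17:32091057-32092112, had 73.6 and 71.6 in T1 and 78.1 and 76.5 in T2.

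Notch2 had the longest gene body of the 4 receptors and 12 shared regions. Of these, 4 ranked higher in T1 and 2 in T2, beside 26.2 and 26.3 percent of all shared regions. The 2 directions lay in different parts of the locus. Its promoter region (chr3:98013136-98014163) had rank percentiles of 80.5 and 84.3 in T1 and 78.4 and 69.4 in T2. The 8.49-point gap moved to 3.84 without T2 replicate 2, to 12.8 without T2 replicate 1 and to 16.0 when ranked by fold. A region 8.1 kb upstream (chr3:98005136-98005763) had 64.1 and 64.2 in T1 and 52.0 and 33.1 in T2, and its 21.6-point gap was 11.7 without T2 replicate 2. Within the first 20 kb of the gene, the region at chr3:98031182-98031731 had 25.7 and 42.8 in T1 and 17.0 and 19.8 in T2, a gap of 15.9 points that was 24.7 without T1 replicate 1, 8.57 without T1 replicate 2 and 8.77 when ranked by fold.

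Deeper in the Notch2 gene the order was the opposite. The region at chr3:98045952-98046755, 32.8 kb after the start site, had 52.6 and 43.1 in T1 and 72.5 and 75 in T2, so both T2 libraries lay above both T1 libraries by a wide margin. Its 25.9-point gap stayed between 19.3 and 32.3 points in every setting tried, with the fold over background at 12 and 10.5 in T1 and 14.6 and 15.4 in T2. A second intragenic region, at chr3:98062707-98063766, had 66.5 and 63.8 in T1 and 73.4 and 75.5 in T2. Further along, the regions at chr3:98083765-98084523 and chr3:98101206-98102014 did not separate the groups. The strongest region of the window, upstream at chr3:97971015-97971652, did not either, with 82.5 and 83.4 in T1 and 79.6 and 88.0 in T2.

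At Notch1, the receptor that drives T cell commitment, the promoter was the region with the widest gap. It spans chr2:26503223-26504315 and had rank percentiles of 78.3 and 75.7 in T1 replicates 1 and 2 and 61.9 and 52.8 in T2 replicates 1 and 2. Both T1 libraries lay above both T2 libraries, by 19.7 points on average, and the gap was between 14.6 and 24.7 points in every setting tried. The region also overlaps the body of the predicted gene Gm35978. Upstream the order was reversed: a region 30.9 kb before the start site (chr2:26534295-26535086) had 4.81 and 18.9 in T1 and 23.5 and 29.6 in T2. Another, 48.2 kb before it (chr2:26551421-26552584), had 34.2 and 25.8 in T1 and 49.8 and 43.9 in T2. The nearer of these had a gap of 14.7 points that was 7.42 without T1 replicate 1 and 23.6 without T1 replicate 2, and under the 0.5 cover rule it became T2-only and the farther one T1-only. With −log10 q of at least 10 the nearer region was no longer shared, and when ranked by fold the gap of the farther one was 10.4 instead of 16.8 points.

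The strongest Notch1 regions did not follow either direction by much. An intragenic region 20.3 kb after the start site (chr2:26482991-26484023) had rank percentiles of 96.5, 97.1, 96.3 and 97.7 across the 4 libraries in the order above. A region 9.8 kb upstream of the start site (chr2:26513097-26514049) had 96.1 and 94.0 in T1 and 96.5 and 97.4 in T2. Notch1 was open at several sites in T1 and in T2, with no group-only region.

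Notch4, a receptor mostly studied in endothelium, had its strongest own region near the 3′ end of the gene rather than at the start site. That region, at chr17:34586907-34587893, had rank percentiles of 94.2 and 90.1 in T1 and 91.6 and 84.5 in T2, and the groups overlapped. A weaker intragenic region at chr17:34577800-34578372 had 29.6 and 33.3 in T1 and 6.58 and 11.4 in T2, so it ranked higher in T1 by 22.4 points. With peaks of at least 10 the gap was 14.9 points, and the region was not shared under the 0.5 cover rule. In the flank, a region in Pbx2 (chr17:34592877-34593567) had 27.7 and 18.2 in T1 and 7.18 and 18.1 in T2. Its order was lost without T2 replicate 1, with either stricter threshold and with the 0.5 cover rule, and its gap of 10.3 points was 6.45 without T1 replicate 1, 17.2 without T1 replicate 2, 15.7 without T2 replicate 2 and 5.93 when ranked by fold. A region on the Ppt2 promoter (chr17:34626759-34628304) had 49.8 and 43.3 in T1 and 53.2 and 58.9 in T2, and its gap of 9.48 points was 5.59 without T1 replicate 2 and 3.78 when ranked by fold.

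**Figure D5:**
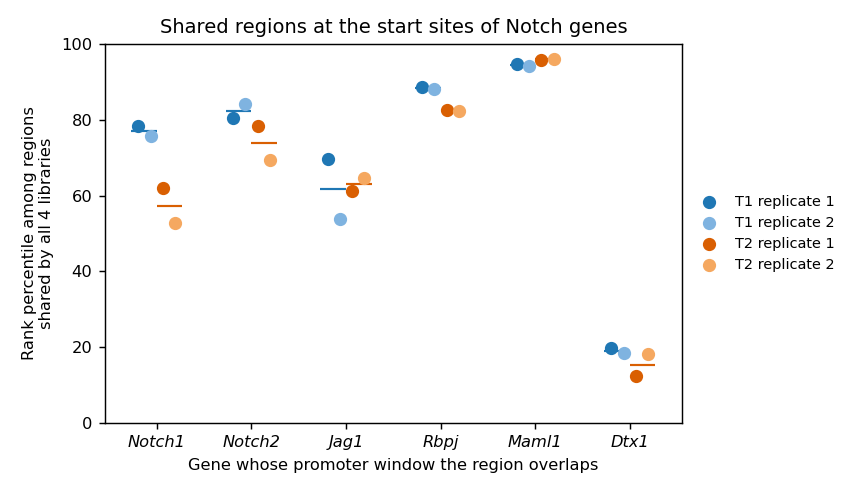
Rank percentile among regions shared by all 4 libraries (y axis, 100 strongest) for the 6 shared regions that overlap a promoter window of the named genes; points are libraries and short lines are group means. Both T1 libraries lie above both T2 libraries at Notch1, Notch2, Rbpj and Dtx1, at Dtx1 by a small margin over T2 replicate 2. The T2 libraries lie slightly higher at Maml1, and Jag1 overlaps.

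Among the 6 shared promoter regions, 4 ranked higher in T1 and 1 in T2. The order at Dtx1, counted for T1, was lost in several settings. When ranked by fold, the order at Maml1, counted for T2, was lost as well. Over all 9778 shared regions on a promoter window the shares were 30.3 percent and 21.6 percent, so promoters in general ranked higher in T1 more often than in T2. At Jag1, a Notch ligand also made by niche cells, the promoter region (chr2:137116738-137117658) had 69.7 and 53.9 in T1 and 61.2 and 64.7 in T2 and did not separate the groups. Its T1 replicates lay on either side of the T2 values: T2 was higher by 8.65 points without T1 replicate 1, and T1 was higher by 6.17 points without T1 replicate 2. A weaker region 1.9 kb inside the gene (chr2:137114234-137115038) had 22.3 and 19.5 in T1 and 25.4 and 25.7 in T2. This gap of 4.62 points was 2.39 without T1 replicate 2 and 0.54 when ranked by fold.

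At Rbpj, the DNA-binding protein through which all 4 receptors act, the promoter region was broad (2530 bp, chr5:53588493-53591022). It had rank percentiles of 88.7 and 88.2 in T1 and 82.6 and 82.2 in T2. The gap was 6.03 points, and replicates differed by less than 1 point in each group. Both T1 libraries ranked above both T2 libraries in all settings, though the smaller windows and the replicate block could not change this order. The start site used, at 53590346, lies inside the annotated gene body, which begins at 53555779. A second region, at chr5:53546608-53547519 in the body of Gm40304, lay 8.3 kb from the Rbpj body and 43.3 kb before that start site. It had 52.9 and 48.9 in T1 and 7.02 and 29.9 in T2. This was the widest T1-directed gap of the 74 regions, 32.4 points, and it was 20.6 points without T2 replicate 1. Of the 4 shared Rbpj regions, 2 ranked higher in T1 and 0 in T2, beside 26.2 and 26.3 percent of all shared regions. The group-only regions of this gene were 1 T1-only and 1 T2-only among 9, beside 2.33 and 6.88 percent of all regions.

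Maml1, the coactivator that bridges Notch and Rbpj to histone acetylation, had the strongest promoter region of the 6 shared ones. Its region at chr11:50291595-50292818 had 94.7 and 94.3 in T1 and 95.8 and 96.0 in T2, a gap of 1.39 points whose order was lost when ranked by fold. Just inside the gene, the region at chr11:50286325-50286903 had 42.7 and 52.4 in T1 and 35.8 and 25.5 in T2, and its order too was lost when ranked by fold. In the flank, 15 kb past the 3′ end, the region at chr11:50240189-50240590 had 54.5 and 46.7 in T1 and 68.5 and 81.5 in T2. Its 24.4-point gap was 12.6 when ranked by fold. The Sqstm1 promoter region (chr11:50209928-50211242) had 90.0 and 90.7 in T1 and 85.6 and 78.4 in T2. Its 8.32-point gap was 4.57 without T2 replicate 2 and 28.4 when ranked by fold.

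At Hes1, the classical target, a region inside the gene (chr16:30066463-30067248) had 46.8 and 31.9 in T1 and 57.8 and 54.0 in T2, so it ranked higher in T2. The gap of 16.5 points was 8.28 without T1 replicate 2 and 2.95 when ranked by fold. At the lower-coordinate end of the gene, chr16:30065128-30065394, a weak peak was present in replicate 1 of each group only, with −log10 q of 7.56 in T1 and 9.97 in T2. Beyond that end, 0.94 kb from the gene, the region at chr16:30063464-30064420 had a peak in all 4 libraries. Its −log10 q was 39.5 and 20.3 in T1 and 34.7 and 25.1 in T2, and its ranks did not separate the groups. The flanking regions that separated the groups favoured T1. The region at chr16:30069873-30070858, 2.1 kb from the gene, had 35.3 and 37.7 in T1 and 26.9 and 20.3 in T2. Its gap of 12.9 points was 8.22 when ranked by fold. The region at chr16:30023433-30023877, 41.5 kb away, had 47.0 and 52.7 in T1 and 26.6 and 35.5 in T2, a gap of 18.8 points that was 7.25 when ranked by fold. The strongest region of the Hes1 window was beside the latter, in the body of 9030404E10Rik, at chr16:30024503-30025227, with 90.6 and 89.7 in T1 and 87.0 and 86.1 in T2.

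Dtx1 had a weak promoter region (chr5:120711459-120712029), with 19.7 and 18.4 in T1 and 12.4 and 18.3 in T2. These values are nearly equal in 3 libraries, and the order was lost without T2 replicate 1, with either stricter threshold, under the 0.5 cover rule and when ranked by fold. Its 3.70-point gap was 5.89 without T1 replicate 2 and 6.06 without T2 replicate 2. In the flanks, a region in Rasal1, which encodes a Ras regulator (chr5:120648400-120649761), had 57.6 and 68.7 in T1 and 52.1 and 33.6 in T2. A region in Oas2, an interferon-induced gene (chr5:120749399-120750045), had 56.2 and 52.8 in T1 and 39 and 20.9 in T2. The gaps of 20.3 and 24.5 points were 10.7 and 15 without T2 replicate 2. Higher ranks in T2 were seen at chr5:120643499-120644620, with 57.6 and 57.3 in T1 and 65.4 and 65.3 in T2, and at chr5:120673609-120674074, with 4.63 and 9.05 in T1 and 10.9 and 19.6 in T2. The order at the first was lost when ranked by fold. The second was lost at equal list length and became T2-only with peaks of at least 10, and its gap of 8.39 points was 13.5 without T2 replicate 1 and 5.26 without T2 replicate 2.

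The rest of the pathway was examined with a list of 64 genes, all found in the annotation, whose windows held 763 regions and shared none with the 9 genes. Of these regions 51 were T2-only (6.68%) and 12 were T1-only (1.57%), beside 6.88 and 2.33 percent of all regions, and 471 were shared. Among the shared ones 123 ranked higher in T2 (26.1%) and 119 in T1 (25.3%), beside 26.3 and 26.2 percent. With all lists shortened to equal length the group-only counts were 31 T2-only and 24 T1-only, beside 4.33 and 4.61 percent of all regions. All 12 receptor glycosylation and processing genes with a promoter entry had a joined region with peaks of all 4 libraries on a promoter window. They include Adam10 and Adam17, the proteases that cut the receptors. Such a region was found for 2 of 5 ligand genes, 8 of 10 corepressors, 5 of 6 coactivators, 6 of 9 targets and 7 of 8 endocytosis and turnover genes. For the whole list it was 40 of 50 genes with an entry, beside 58.4 percent of 17491 protein-coding genes with one. Whether these groups differ from other genes in this was not tested.

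Of that list, 5 genes held 3 regions of the T2-only class and 0 of the T1-only class. They were the ligand gene Dll3 (among 11 regions), the acetyltransferase gene Kat2a (among 17), the glycosyltransferase gene Mfng (among 16), the feedback inhibitor gene Nrarp (among 18) and the coactivator gene Maml2 (among 29). The strongest of these was at Dll3, chr7:28263864-28264115, with −log10 q of 33.9 and 21.0 in T2 replicates 1 and 2. Nrarp, a direct Notch target, had its strongest at chr2:25172705-25173043, with 13.3 and 20.4. The ligand gene Jag2 and the turnover genes Cul1 and Fbxw7 had 2 T2-only and 0 T1-only regions each, as did Neurl1a, Hes5, Spen and Psen2, whose strongest group-only regions had a lower −log10 q. The numbers at single genes are small, and windows with more regions have more chances to hold a group-only one. These genes were picked for the largest differences among 64, where 6.88 percent of all regions were T2-only and 2.33 percent T1-only. Their counts were not repeated at equal list length.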

How the data were processed

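ATAC-seq peak lists of 4 libraries (2 T1, 2 T2) were used as deposited. Bowtie2, SAMtools, MACS2 and mm10 are named in the submitters' processing notes, with no versions. The authors deposited 1 list per library, with the fold over background (a ratio) and the −log10 q of each peak. The files give no read counts, so depth is unknown and no count model could be used.

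Peaks on assembled chromosomes were joined across lists where they shared at least 1 bp, with Python 3.11.15 and pandas 2.3.3. Windows were gene bodies with 50 kb on either side, and the 9 genes and all gene lists were chosen with earlier results of these data known. Shared regions were ranked by −log10 q within each library, and library counts were compared by exact two-sided permutation tests (SciPy 1.17.1). The scripts were tested on simulated data. Longer lists can hold more weak peaks, so list length affects group-only counts. Regions were named by rule: the strongest of each gene, every group-only region and up to 3 shared regions with the widest group difference. Of the other pathway genes, the 8 with the largest difference of T2-only and T1-only regions were named, with ties broken by peak strength (mean −log10 q of a gene's strongest group-only region). The promoter regions, the Hes1 regions at and near its lower-coordinate gene end and further shared regions at Notch1, Notch2, Notch3 and Notch4 were named after their values were seen. Motifs were searched in RefSeq promoter sequences only, not in peaks. Alternatives were stricter thresholds, equal list length, other overlap rules, smaller windows, ranking by fold, a replicate block and each library left out.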

Additional observations from a re-analysis of the deposited data

How the results depend on the processing

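With 2 libraries per group and unknown depth, a missing peak may be a peak below the calling threshold, and the exact permutation test of 2 against 2 libraries cannot give a p under 0.333. At the 9 genes there were 9 T2-only, 2 T1-only and 74 shared regions, with 16 ranking higher in T2 and 22 in T1. Windows of 10 kb gave 0 T1-only and 42 shared regions among 72, and of the shared ones 8 ranked higher in T2 and 14 in T1. Gene bodies alone gave 3 T2-only, 0 T1-only and 26 shared regions among 50, and of the shared ones 6 ranked higher in T2 and 9 in T1. Neither window changes the shares over all regions, which were 6.88 percent T2-only and 2.33 percent T1-only. Of all shared regions, 26.3 percent ranked higher in T2 and 26.2 percent in T1. The 0.5 cover rule gave 4 T1-only regions among 127, against 2.73 percent of all regions. For the other pathway genes, 51 T2-only and 12 T1-only regions became 31 and 24 at equal list length, 24 and 5 with 10 kb windows, and 10 and 3 in gene bodies alone. Leaving out each library in turn gave 12 to 19 T2-only, 2 to 7 T1-only and 74 to 83 shared regions at the 9 genes. It gave 23 to 31 regions ranking higher in T2 and 29 to 32 in T1, and 65 to 102 T2-only and 19 to 45 T1-only regions at the other pathway genes. Over all regions the same settings gave 9.67 to 15.7 percent T2-only and 3.44 to 6.14 percent T1-only. Of all shared regions, 38.0 to 38.5 percent then ranked higher in T2 and 37.1 to 38.1 percent in T1. The T2-only minus T1-only count of Notch2, 1 with all libraries, was -2 without T1 replicate 2; the cause of these changes was not tested. Of 29 regions that separated the groups and were named by the rule or lie on a promoter window, 18 kept their order in every alternative that was run. The smaller windows and the replicate block could not change the order of such a region, and leaving a library out seldom can. The count therefore rests mainly on the stricter thresholds, equal list length, the overlap rules and ranking by fold. The Notch1 region 48.2 kb upstream, which ranked higher in T2, became T1-only under the 0.5 cover rule. The separating regions at Notch1, Notch2 and Notch3 named after their values were seen are not among the 29.

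With replicate numbers as pairs (the replicate block), 26 of the 74 regions ranked higher in T2 in both pairs and 28 in T1, beside 33.0 and 32.6 percent of all shared regions. Same-numbered libraries did not deviate together (Pearson r = 0.0103 across 44274 regions, which are not independent replicates), so the numbers are treated as names only.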
